A study of Homo sapiens with 11 samples.

Results

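The enzymes that process the N-terminus of new proteins were followed by their transcripts in xenograft tumours labelled as the breast cancer line BT-474. They were taken by gene symbol from the deposited count and RPM tables (RPM, counts scaled to the library total). The 10 symbols METAP2, METAP1, METAP1D, PDF, NAA10, NAA15, NAA20, NAA25, NMT1 and NMT2 were all present among 28152 symbols. All 10 passed the filter on low counts, which left 16653 genes to test. Female athymic nude mice, which lack thymus-derived T cells but keep other immune cells, had estradiol supplied by an implant (0.72 mg over 90 days). BT-474 cells, labelled HR+/Her2+, were placed in a mammary fat pad in Matrigel, and tumours entered the study above 95 mm3. The 6 vehicle tumours came from animals injected under the skin every 4 days with mannitol in water. The 5 evexomostat tumours came from animals injected on the same schedule with 12 mpk of evexomostat (SDX-7320), a MetAP2 inhibitor, and all libraries were labelled day 33. Each library was 1 tumour, and the question was which transcripts differed between treated and vehicle tumours. Both groups therefore shared the line, the host and the estradiol, and the ages of the animals are not given in the sources used here.

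Protein synthesis starts with methionine, and in most cytosolic proteins that methionine is cut off while the chain is still leaving the ribosome whenever the next residue is small. Methionine aminopeptidases 1 and 2 share this work, and inhibitors of the fumagillin family, to which evexomostat belongs, bind the second of these. Acetyltransferases of the NatA type then cap many of the exposed ends, and those of the NatB type cap ends that keep the methionine. N-myristoyltransferases attach a fatty acid to proteins that start with glycine, which ties them to membranes. In mitochondria the starting methionine carries a formyl group, which peptide deformylase removes before a mitochondrial aminopeptidase can act.

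None of the 10 genes differed between evexomostat and vehicle tumours past an adjusted p-value of 0.05 in edgeR's quasi-likelihood test, against 0.606% of all genes tested (101 of 16653; 0.174% higher and 0.432% lower). DESeq2 passed none of the 10 either, against 3.9% of all genes. The transcript of the drug's target, METAP2, was at 111.5 ± 51.5 CPM (counts scaled to the library total with TMM factors; SD, n = 6) in vehicle tumours. In evexomostat tumours it was at 108.6 ± 2.22 CPM (SD, n = 5). The smallest p-value of the 10 belonged to METAP1D, the mitochondrial aminopeptidase, at 10.7 ± 3.41 CPM under vehicle and 15.02 ± 1.89 under evexomostat. Without adjustment, a p under 0.05 was reached by 1 gene of 10, METAP1D, in edgeR, beside 13.4% of all genes tested. DESeq2 also gave METAP1D alone, beside 15.3% of all genes. Log2 fold changes were above 0 in 6 of the 10 genes, with a median of 0.06, while 44.6% of all genes were above 0 and their median was -0.04. The vehicle and evexomostat libraries overlapped in CPM in all 10 genes, and 2.97% of all genes did not overlap.

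**Figure D1:**
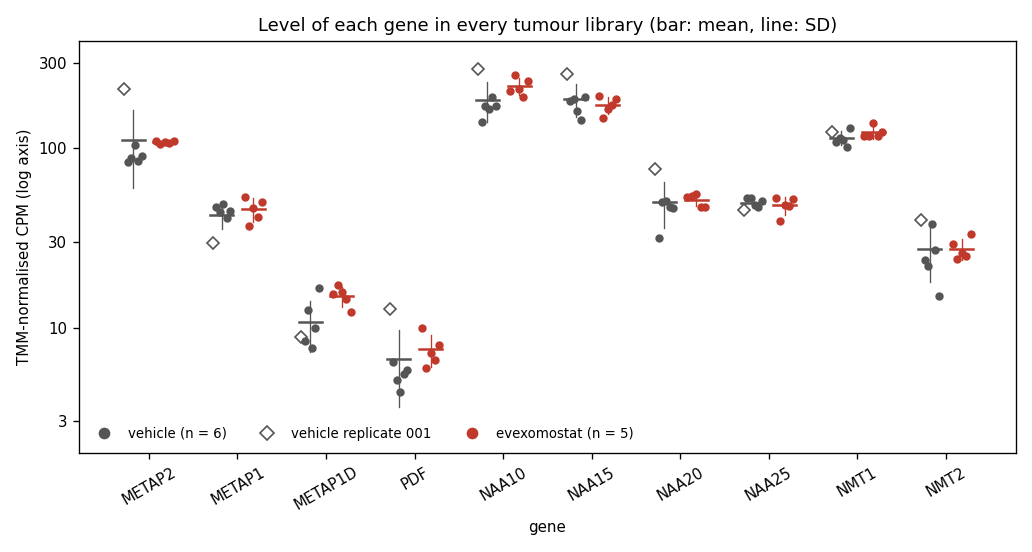
Level of each of the 10 genes in every tumour, in TMM-normalised CPM on a log axis, with vehicle in grey (n = 6) and evexomostat in red (n = 5). Horizontal bars are means, vertical lines are SD, and the open diamond is vehicle replicate 001, which lies above all other vehicle libraries in METAP2, PDF, NAA10, NAA15, NAA20 and NMT2 and below them in METAP1 and NAA25.

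The libraries held 22808033 to 39249329 counts, and 3 counts corresponded to 0.0764 to 0.132 RPM. No 2 libraries agreed within sampling noise: over the 55 pairs the smallest chi-square divided by its degrees of freedom was 16.6. Vehicle replicate 001 differed from the rest. Its 100 top genes took 23.9% of the counts, and those of the other 10 libraries 16.2% to 17.9%, so the fold changes and read ratios below are also given without it. The defining luminal genes of the labelled line were mostly low: of 10 luminal markers, ESR1, PGR, KRT19 and CDH1 averaged under 1 CPM, and ERBB2 lay between 26.7 and 66.5 CPM. KRT8 and KRT18 were present, at means of 333 and 149 CPM, and VIM averaged 1184 CPM. These levels go against the label HR+/Her2+, and whether the cells are BT-474 was not tested. Of the markers of other tissues, 6 skeletal muscle genes summed to 1.40 to 7.81 CPM under vehicle and 1.83 to 227.8 under evexomostat. Among these, ACTA1 reached 139.6 CPM, MYH4 76.4 and TTN 11.5, while CKM, TNNT3 and MYLPF peaked at 0.290, 0.339 and 0.218. The 4 adipocyte genes summed to 0.258 to 1.76 CPM under vehicle and 0.249 to 2.52 CPM under evexomostat, with ADIPOQ at 0. Stromal genes (6 of 6 above 1 CPM on average) summed to 1718 to 4463 CPM under vehicle and 1957 to 2394 under evexomostat, leukocyte genes (3 of 3) to 59.7 to 85.9 and 61.1 to 73.8, and 3 endothelial genes, with CDH5 near 0, to 5.52 to 12.1 and 2.67 to 8.18. Their part in the results was not tested. In a piece of tumour, fewer cells of a type and less RNA per cell cannot be told apart, and the handling of mouse reads is not given in the sources used here.

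METAP2 encodes the methionine aminopeptidase that evexomostat inhibits. Under vehicle it was at 215.6 CPM in replicate 001, 84.6 in 003, 88.8 in 004, 104.0 in 005, 85.2 in 006 and 91.0 in 007. Under evexomostat it was at 110.7 CPM in replicate 002, 105.5 in 003, 109.3 in 004, 107.0 in 005 and 110.2 in 007. One vehicle tumour was thus more than 100 CPM above every other tumour, and the remaining 5 vehicle tumours were all below the 5 treated ones, the closest pair being vehicle 005 and evexomostat 003. Over all libraries the log2 fold change was -0.04 (SE 0.23, edgeR adjusted p 0.969), with a 95% interval from -0.53 to 0.46. This direction turned to higher with limma-voom (0.05), with the deposited RPM scaling (0.15 at both pseudocounts) and after a length and GC correction (0.07). The RPM scaling also moved the median log2 fold change of all genes, from -0.04 to 0.08 and 0.10. Without vehicle replicate 001 the log2 fold change of METAP2 was 0.26 (SE 0.08, 95% interval 0.09 to 0.44, edgeR adjusted p 0.0772), a 1.20-fold difference that did not pass the threshold. With levels corrected for transcript length and GC content, the 5 other vehicle tumours were at 81.9 to 107.6 CPM and the treated ones at 107.4 to 117.3, so the groups then overlapped. In the authors' deposited table the log2 fold change of METAP2 is 0.09 with an adjusted p-value of 1. Each of the 10 genes has a higher log2 fold change there than in the fit with TMM factors. Among them are NMT1 at 0.19 against 0.09 and NAA15 at -0.002 against -0.11.

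METAP1, the other cytosolic methionine aminopeptidase, had lower CPM than METAP2 and did not share its high value in vehicle replicate 001. Its vehicle levels were 29.7 CPM in replicate 001, 47.2 in 003, 44.0 in 004, 49.0 in 005, 40.9 in 006 and 45.1 in 007. Its evexomostat levels were 53.8 CPM in 002, 36.8 in 003, 46.4 in 004, 41.5 in 005 and 50.5 in 007. Replicate 001 was the lowest of all 11 libraries for METAP1 and the highest for METAP2, and otherwise the groups overlapped. The METAP1 log2 fold change was 0.10 (SE 0.15, edgeR adjusted p 0.836), with a 95% interval from -0.22 to 0.42, and it was 0.02 (SE 0.11, edgeR adjusted p 0.923) without vehicle replicate 001. On the 8 libraries whose replicate numbers occur in both groups it was below 0, at -0.0879.

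The read ratio of the 2 cytosolic enzymes within a tumour needs no scaling between libraries. The METAP2 to METAP1 read ratio was 7.26 in vehicle 001, 1.79 in 003, 2.02 in 004, 2.12 in 005, 2.08 in 006 and 2.02 in 007. Under evexomostat it was 2.06 in 002, 2.87 in 003, 2.35 in 004, 2.58 in 005 and 2.18 in 007. Outside vehicle 001 the ratio stayed between 1.79 and 2.87, and evexomostat 002 lay within the vehicle range. The log2 ratio averaged 1.31 ± 0.76 (SD, n = 6) in the vehicle group. In the evexomostat group it averaged 1.26 ± 0.19 (SD, n = 5), a difference of -0.05 (two-sided exact permutation p 0.996, adjusted over 4 ratios 0.996). Without vehicle 001 the difference was 0.26, a 1.19-fold higher ratio under evexomostat, with an exact permutation p of 0.0238 and an adjusted p of 0.0952. These ratios are of reads and not of molecules, because the transcripts differ in length.

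METAP1D and PDF encode the mitochondrial pair, the aminopeptidase and the deformylase that acts before it. METAP1D was at 8.92 CPM in vehicle 001, 8.39 in 003, 12.5 in 004, 7.67 in 005, 9.99 in 006 and 16.8 in 007. It was at 15.4 CPM in evexomostat 002, 17.3 in 003, 15.8 in 004, 14.4 in 005 and 12.2 in 007. The treated tumours lay above 4 of the 6 vehicle tumours, while vehicle 004 and vehicle 007 fell within their range. The log2 fold change of METAP1D was 0.49 (SE 0.21, unadjusted p 0.0331, edgeR adjusted p 0.317), a 1.40-fold difference with a 95% interval from 1.03 to 1.91. It kept its direction in each of the 23 other fits, between 0.39 and 0.66. Without vehicle replicate 001 it was 0.45 (SE 0.21, edgeR adjusted p 0.203). METAP1D overlaps SLC25A12 on the opposite strand in GENCODE, and SLC25A12 had up to 2576 counts in a library. This overlap is of whole gene spans. Strand use and the counting of reads in overlaps are not given, and the effect on METAP1D was not tested.

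PDF had the lowest mean CPM of the 10 genes in both groups, with 148 to 321 counts per library. Its vehicle levels were 12.8 CPM in 001, 6.43 in 003, 5.13 in 004, 4.36 in 005, 5.49 in 006 and 5.81 in 007. Its evexomostat levels were 9.96 CPM in 002, 5.99 in 003, 7.21 in 004, 6.62 in 005 and 8.05 in 007. As for METAP2, vehicle 001 was highest, but evexomostat 003 was below vehicle 003, so the groups also overlapped without it. The PDF log2 fold change was 0.19 (SE 0.27, edgeR adjusted p 0.828) over all libraries and 0.48 (SE 0.17, edgeR adjusted p 0.119) without vehicle 001. With single libraries left out it ranged from 0.07, without evexomostat 002, to 0.48. The gene span of PDF overlaps that of COG8 on the same strand in GENCODE, and how reads in the overlap were counted is not given. The COG8 log2 fold change was 0.15 (SE 0.17, edgeR adjusted p 0.774), and 0.06 (SE 0.13, edgeR adjusted p 0.800) without vehicle 001.

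**Figure D2:**
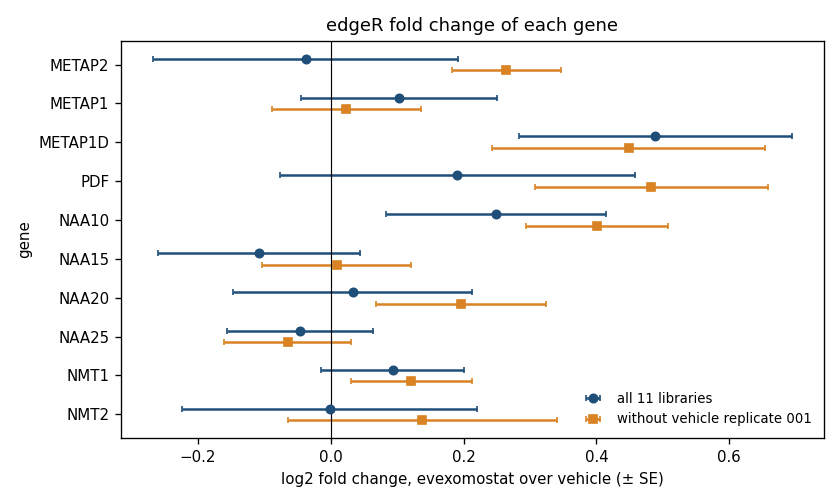
edgeR log2 fold change of evexomostat over vehicle for each gene, with SE, over all 11 libraries (blue circles) and without vehicle replicate 001 (orange squares). METAP2 moves from -0.04 to 0.26, PDF from 0.19 to 0.48 and NAA10 from 0.25 to 0.40, and no gene passes an adjusted p-value of 0.05 in either fit.

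NAA10 and NAA15 encode NatA, which acetylates the small residues that methionine aminopeptidases expose; NAA10 is the catalytic subunit and NAA15 anchors it to the ribosome. NAA10 was at 277.3 CPM in vehicle 001, 141.3 in 003, 172.1 in 004, 165.3 in 005, 192.8 in 006 and 173.0 in 007. It was at 210.6 CPM in evexomostat 002, 255.9 in 003, 213.7 in 004, 193.6 in 005 and 236.8 in 007. Vehicle 001 was again the highest library, and the other 5 vehicle tumours were all below the treated ones, with vehicle 006 and evexomostat 005 less than 1 CPM apart. The log2 fold change of NAA10 was 0.25 (SE 0.17, edgeR adjusted p 0.574) over all libraries. Without vehicle 001 it was 0.40 (SE 0.11, edgeR adjusted p 0.0510), a 1.32-fold difference with a 95% interval from 1.12 to 1.55. In the authors' deposited table NAA10 has a log2 fold change of 0.36 and an adjusted p-value of 0.590. As with each of the 10 genes, that fold change is above the value of the fit with TMM factors.

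NAA15 in the treated tumours lay within its vehicle range. Its vehicle levels ran from 143.9 to 258.8 CPM with a median of 186.6, and its evexomostat levels were 197.2 CPM in 002, 148.6 in 003, 167.0 in 004, 174.0 in 005 and 188.9 in 007. Evexomostat 003 had the highest NAA10 and the lowest NAA15 of the treated tumours. The log2 fold change of NAA15 was -0.11 (SE 0.15, edgeR adjusted p 0.828). It was above 0 without vehicle 001 (0.00856, edgeR adjusted p 0.974), with quality weights and with RPM scaling. With RPM scaling it was 0.006 at both pseudocounts, below the medians of all genes (0.08 and 0.10). The NAA10 to NAA15 read ratio was 1.07 in vehicle 001, 0.771 in 003, 0.906 in 004, 1.02 in 005, 1.34 in 006 and 0.888 in 007. Under evexomostat it was 1.07 in 002, 1.72 in 003, 1.28 in 004, 1.11 in 005 and 1.25 in 007. All treated tumours except 002 exceeded at least 5 of the 6 vehicle tumours, and vehicle 006 exceeded 4 of the 5 treated ones. The difference in mean log2 ratio was 0.37, a 1.29-fold higher ratio under evexomostat (two-sided exact permutation p 0.0563, adjusted over 4 ratios 0.225). It was 0.39 without vehicle 001, with an exact permutation p of 0.0794. These ratios were not corrected for transcript length or GC content. With the length and GC correction the log2 fold change was 0.17 for NAA10 (edgeR adjusted p 0.677). For NAA15 it was then -0.01 (edgeR adjusted p 0.983).

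NAA20 and NAA25 are the catalytic and auxiliary subunits of NatB, which acetylates ends where the methionine is kept before an acidic residue or its amide. NAA20 was at 76.7 CPM in vehicle 001, 31.5 in 003, and 46.8 to 50.7 in the other 4 vehicle tumours, and at 47.3 to 55.7 CPM in the 5 treated ones. The vehicle group thus held both the highest and the lowest of the 11 values, with the treated tumours between them. The NAA20 log2 fold change was 0.03 (SE 0.18, edgeR adjusted p 0.966), and it was 0.20 (SE 0.13, edgeR adjusted p 0.371) without vehicle 001 and -0.0719 without vehicle 003. NAA25 varied least of the 10 genes under vehicle, from 45.6 to 53.2 CPM, a coefficient of variation of 6.37% (5.36% without vehicle 001). Under evexomostat NAA25 was at 52.9 CPM in 002, 39.5 in 003, 48.1 in 004, 48.0 in 005 and 52.2 in 007, and 003 was the lowest of all 11 libraries. Its log2 fold change was -0.05 (SE 0.11, edgeR adjusted p 0.906), with a 95% interval of the fold from 0.822 to 1.14. With RPM scaling it was above 0 (0.0435 and 0.0444), below the medians of all genes (0.08 and 0.10). Without vehicle 001 it was -0.07 (SE 0.10, edgeR adjusted p 0.715). The difference in the log2 NAA20 to NAA25 read ratio was 0.13 (two-sided exact permutation p 0.613, adjusted over 4 ratios 0.996), and 0.28 without vehicle 001 (exact permutation p 0.175).

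**Figure D3:**
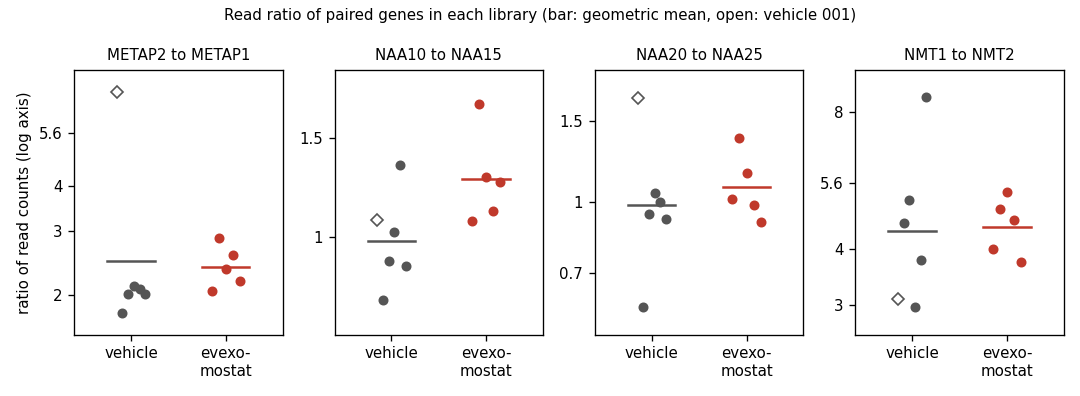
Ratio of read counts of 2 genes within each library, on log axes, with vehicle in grey, evexomostat in red, vehicle replicate 001 as an open diamond and bars at the geometric mean. Vehicle 001 stands at 7.26 in METAP2 to METAP1 against 1.79 to 2.87 elsewhere, while in NMT1 to NMT2 it is vehicle 007 that stands highest, at 8.64.

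NMT1 and NMT2 encode the 2 N-myristoyltransferases. The stretches before their RefSeq starts are shown, limited to bases that no GENCODE exon covers. Whether they bear on the levels of the 2 genes was not tested. Of the 10 genes, 7 had a RefSeq window; METAP2, NAA10 and NAA25 had none. The capitals mark the letters GGGCGG (GC box) or CCAAT on the strand shown. Also searched on both strands, with no match in these stretches, were the E-box CACGTG, the NRF1 motif, the TATA box TATAAA, the ETS motif CCGGAAGT and the ATF4 motif TGATGNAA. NMT1 is at chr17:45061110-45061282 on the plus strand and NMT2 at chr10:15168694-15168943 on the minus strand, in GRCh38.p14.
NMT1: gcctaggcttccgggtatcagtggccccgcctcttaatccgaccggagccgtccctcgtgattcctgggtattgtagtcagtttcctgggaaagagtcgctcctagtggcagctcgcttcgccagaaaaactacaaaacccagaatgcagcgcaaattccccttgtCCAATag
NMT2: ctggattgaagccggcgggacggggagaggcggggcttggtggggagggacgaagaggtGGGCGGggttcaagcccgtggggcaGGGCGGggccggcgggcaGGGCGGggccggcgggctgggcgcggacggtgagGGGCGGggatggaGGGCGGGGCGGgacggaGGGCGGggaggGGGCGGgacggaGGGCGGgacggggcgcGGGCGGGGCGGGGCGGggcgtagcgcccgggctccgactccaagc
The NMT2 stretch of 250 bases held 12 GC boxes, some of which overlap, and no CCAAT. The NMT1 stretch of 173 bases held 1 CCAAT and no GC box. GC content was 82.0% for NMT2 and 54.9% for NMT1. Over 35116 RefSeq windows of the 250 bases before a start, searched on both strands, 42.6% held GGGCGG, 32.0% CCAAT and 10.7% TATAAA. The E-box was in 6.34%, the NRF1 motif in 5.07%, the ETS motif in 3.42% and the ATF4 motif in 3.14%. These windows are longer than the NMT1 stretch of 173 bases. Of the 7 genes with such a window, 6 held GGGCGG (METAP1, METAP1D, PDF, NAA15, NAA20 and NMT2). The matches are descriptions only.

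NMT1 was the more abundant and the steadier of the 2 myristoyltransferases. Its vehicle levels ran from 102.0 to 130.0 CPM with a median of 112.8, and its evexomostat levels were 117.3 CPM in 002, 117.6 in 003, 138.4 in 004, 116.7 in 005 and 124.3 in 007. In these uncorrected levels vehicle 001 was within the range of its group. With levels corrected for transcript length and GC content, NMT1 was at 180.7 CPM in vehicle 001. The other vehicle tumours were then at 96.6 to 121.3 CPM and the treated ones at 109.3 to 137.5. The NMT1 log2 fold change was 0.09 (SE 0.11, edgeR adjusted p 0.779), with a 95% interval of the fold from 0.908 to 1.25, and it was 0.12 (SE 0.09, edgeR adjusted p 0.439) without vehicle 001. NMT2 was at 40.0 CPM in vehicle 001, 24.0 in 003, 22.2 in 004, 37.7 in 005, 27.0 in 006 and 15.03 in 007, and at 24.1 to 33.3 CPM in the treated tumours. Its vehicle tumours spread on both sides of all treated ones, with a coefficient of variation of 34.6% against 8.86% for NMT1 (32.8% and 9.09% without vehicle 001). The log2 fold change of NMT2 was -0.00149 (SE 0.22, edgeR adjusted p 0.998), with a 95% interval of the fold from 0.717 to 1.39, and its sign differed between fits (0.14 without vehicle 001 with an edgeR adjusted p of 0.715, 0.15 and 0.16 with RPM scaling). The NMT1 to NMT2 read ratio ran from 2.97 to 8.64 under vehicle and from 3.73 to 5.32 under evexomostat, with a difference in mean log2 ratio of 0.03 (two-sided exact permutation p 0.922, adjusted over 4 ratios 0.996), and -0.07 without vehicle 001 (exact permutation p 0.857).

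Levels of different genes were compared per kilobase of the longest GENCODE transcript, in the 5 evexomostat tumours. NAA10 was highest at 125.4 ± 13.7 CPM per kilobase (SD, n = 5). Then came NAA20 at 32.2 ± 2.51, METAP2 at 30.1 ± 0.62 and NAA15 at 28.1 ± 3.06 CPM per kilobase, whose ranges overlapped. NMT1, at 24.6 ± 1.84 CPM per kilobase, overlapped with NAA15, and METAP1 was at 16.4 ± 2.45, apart from its neighbours. NMT2 at 9.50 ± 1.30 and NAA25 at 8.01 ± 0.89 CPM per kilobase overlapped, as did NAA25 and PDF at 6.54 ± 1.33, and METAP1D at 4.39 ± 0.55 CPM per kilobase was lowest. In all 6 vehicle tumours, 001 included, METAP2 was at 31.0 ± 14.3, METAP1 at 15.3 ± 2.49 and NAA10 at 105.5 ± 26.7 CPM per kilobase (SD, n = 6). The 2 NatB subunits thus differed in level per kilobase although their read counts were close. With the median transcript length instead, METAP2 was at 61.0 and METAP1 at 67.0 CPM per kilobase, so the order of these 2 enzymes depends on the length used. Other places changed too: NAA15 was then at 229.1 and NMT1 at 174.5, next after NAA10, NAA20 was at 49.9, below METAP2, and PDF at 6.54 was lowest, below METAP1D at 16.6.

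Genes other than the 10 were compared with METAP2 over the 13067 other tested genes of mean log2 CPM of at least 1, as a description. Over all 11 libraries the most similar were HMGB1 (Pearson r 0.993 of log2 CPM), LSM3 (0.990) and PTTG1 (0.989). Each of these was high in vehicle 001, at 780.2, 235.0 and 283.2 CPM against means of 367.0, 88.2 and 76.1 in the other vehicle tumours. Without that library, over 10 libraries, the most similar were ZWINT (r 0.972), NUP85 (0.972) and HMGB1 (0.967). All these libraries share their scaling and treatment groups. Among the 10 genes, the r with METAP2 over all libraries was highest for NAA20 (0.808) and lowest for METAP1 (-0.630), and without vehicle 001 it was highest for NAA10 (0.687) and lowest for NAA25 (-0.239).

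A second list held other enzymes of protein N-termini, ubiquitin ligases and adaptors of degradation signals, and factors that bind nascent chains. KLHDC2, listed with the ligases, is known for C-terminal signals, and NACA, BTF3, DNAJC2 and HSPA14 are nascent-chain factors. Of its 28 genes, 27 were tested, and NAA11, a germline relative of NAA10, had 0 counts in every library. None of the 27 passed an adjusted p-value of 0.05 in edgeR's test (0.606% of all genes), none had an unadjusted p under 0.05 (13.4%), and 11 had log2 fold changes above 0 (44.6%), with a median of -0.10. DESeq2 gave no p-value for NAA38 and passed 0 of the rest (3.9% of all genes), with 2 at an unadjusted p under 0.05 (15.3%). The 4 smallest p-values were those of NAA35, NAA80, MTFMT and NAA40. NAA35, a subunit of the NatC acetyltransferase, was at 84.7, 88.3, 83.5, 76.2, 85.1 and 90.7 CPM in vehicle 001, 003, 004, 005, 006 and 007. It was at 76.3, 63.6, 74.8, 78.5 and 71.9 CPM in evexomostat 002, 003, 004, 005 and 007. Only vehicle 005 fell within the treated range, and the log2 fold change was -0.21 (SE 0.10, edgeR adjusted p 0.384), and -0.21 without vehicle 001. The log2 fold change of NAA80, which acetylates actin, was 0.37 (SE 0.18, edgeR adjusted p 0.394), and 0.27 without vehicle 001. For MTFMT, which formylates the mitochondrial initiator and so acts before PDF, the log2 fold change was -0.31 (SE 0.19, edgeR adjusted p 0.517), opposite in sign to METAP1D and PDF. Without vehicle 001 it was -0.18 (SE 0.16, edgeR adjusted p 0.514). For NAA40, which acetylates histones, the log2 fold change was 0.20 (SE 0.12, edgeR adjusted p 0.527), and 0.15 without vehicle 001.

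**Figure D4:**
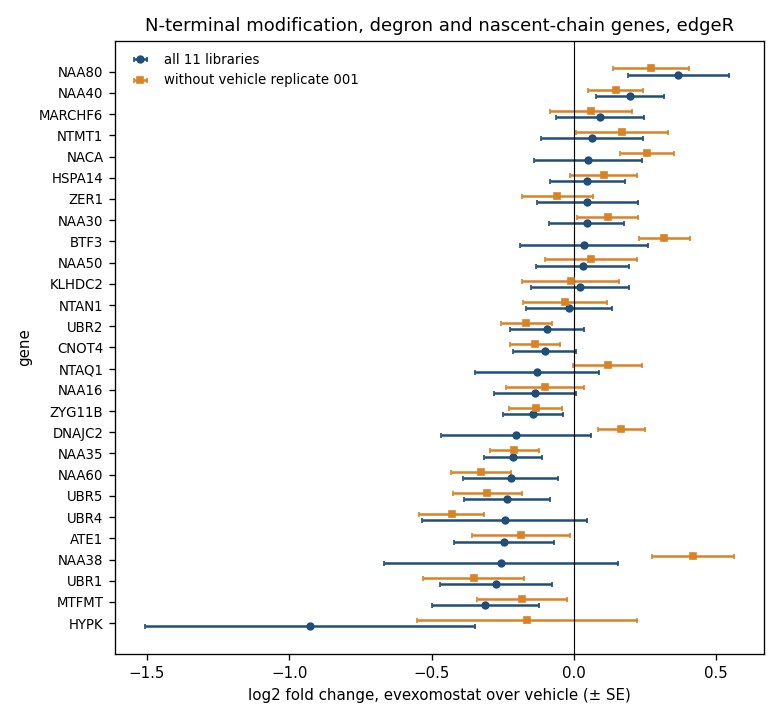
edgeR log2 fold change with SE of the 27 genes of the second list (N-terminal modification, degradation signals and nascent-chain factors), over all 11 libraries (blue circles) and without vehicle replicate 001 (orange squares). None passes an adjusted p-value of 0.05 in either fit, and NAA38 is among the genes that change sign, from -0.26 to 0.42.

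Several of these genes also took other values when vehicle 001 was left out. Without it, 4 of the 10 genes (METAP2, METAP1D, PDF and NAA10) and 7 of the 27 others had an unadjusted p under 0.05, beside 24.4% of all genes, and none of the 37 passed the adjusted threshold, which 5.22% of all genes did (1.98% higher). In that comparison 9 of the 10 genes had log2 fold changes above 0, beside 49.6% of all genes, and METAP2 and NAA10 did not overlap between groups, beside 8.33% of all genes. UBR4 and BTF3 are named here after their values were seen. UBR4, a ubiquitin ligase that recognises destabilising N-termini, was at 110.5 CPM in vehicle 001 and 354.2 to 517.7 in the other vehicle tumours, against 298.2 to 363.8 under evexomostat. Its log2 fold change was -0.24 (SE 0.29, edgeR adjusted p 0.787) with all libraries and -0.43 (SE 0.12, edgeR adjusted p 0.0514) without vehicle 001. It passed the threshold only on the 8 libraries with shared replicate numbers, fitted without a block (-0.55, edgeR adjusted p 0.0297). BTF3, a subunit of the nascent polypeptide-associated complex at the ribosome exit, was at 1022 CPM in vehicle 001 and 413.1 to 496.9 in the other vehicle tumours, against 501.1 to 607.6 under evexomostat. Its log2 fold change was 0.04 (SE 0.23, edgeR adjusted p 0.972) with all libraries and 0.32 (SE 0.09, edgeR adjusted p 0.0612) without vehicle 001.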

How the data were processed

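RNA of 11 tumours was sequenced as paired reads of 150 bases. Per the submitters' processing notes, the tools were bcl2fastq 2.17, STAR 2.7.5c, featureCounts, Subread and edgeR, and the builds GRCh37 and hg19; the annotation, strand use and handling of mouse reads are not given in the sources used here. The authors deposited whole-number counts per symbol, RPM values (each equal to the count scaled to the library total within 2e-13) and a table of log2 fold changes and p-values. Columns were matched to libraries by the code in the sample description.

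Genes were kept with filterByExpr (minimum count 10, minimum total 15), normalised by TMM, and groups were tested in edgeR 4.0.16 (R 4.3.3) by the quasi-likelihood F-test without covariates, Benjamini-Hochberg adjusted over all genes tested, threshold 0.05. Levels are TMM-normalised CPM, and log2 CPM used a prior count of 2. Standard errors and intervals come from the F statistic and its degrees of freedom. Read ratios added 0.5 to each count and were tested over all 462 splits, smallest p 0.002165 (252 and 0.007937 with 5 against 5). Each library is labelled with its group and a number, and 003, 004, 005 and 007 occur in both groups. The p-values set the difference between groups against the spread between these samples.

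Alternatives were other scalings and filters, DESeq2 1.42.0, limma 3.58.1 on voom and RPM values, a replicate block and leaving out each library; the length and GC correction (splines with 5 degrees of freedom) was chosen after seeing the data. The 10 genes, the lists and the rule for named genes (all 10 genes; the 4 smallest p-values of the other list when none passed; the 3 genes most correlated with METAP2) were chosen with earlier results of these data known. Transcript lengths are from GENCODE release 29 and promoter windows from RefSeq, both by symbol; NTAQ1 and its older symbol WDYHV1 are 1 gene. Some gene spans overlap others in GENCODE, among them PDF with COG8, NAA10 with ARHGAP4, NAA15 with NDUFC1 and METAP1D with SLC25A12. How reads in these overlaps were counted is not given in the sources used here.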

Additional observations from a re-analysis of the deposited data

Results flagged for a closer look

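The highest and lowest library of each group was compared with the rest of its group for the 10 genes and 4 read ratios. Of 56 such comparisons, in 28 groups of values, 3 stood out, where chance gives about 1 in 20 groups. All 3 were in vehicle replicate 001, and METAP2 enters 2 of them. METAP2 was at 215.6 CPM there, against 84.6 to 104.0 in the other vehicle tumours. PDF was at 12.8 CPM, against 4.36 to 6.43. The METAP2 to METAP1 read ratio was 7.26, against 1.79 to 2.12. The same library gave 23.9% of counts to 100 top genes, and the part of this in the 3 values was not tested. With each library corrected for transcript length and GC content, METAP2 was at 182.0 CPM in vehicle 001 and 81.9 to 107.6 in the others.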

How the results depend on the processing

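Without any count filter, with a minimum mean log2 CPM of 1, under other scalings and tests and with each library left out, 0 of the 10 genes passed the threshold. The 101 genes past it (29 higher, 72 lower) became 649 (200 and 449) with DESeq2 and 1059 (384 and 675) with quality weights in limma-voom. Lower genes were 42 with upper quartile scaling and 31 and 30 with limma-trend on RPM values (pseudocounts 1 and 0.1), which moved the median log2 fold change of all genes from -0.04 to 0.08 and 0.10. Leaving out 1 library gave 1 to 865 genes (1 to 328 higher, 0 to 537 lower). The 865 came without vehicle 001 and the 1 without evexomostat 005, where an unadjusted p under 0.05 was reached by 1833. There were 2 without evexomostat 002, 3 without 007, 28 without 004 and 46 without 003, and 52, 46 and 56 without vehicle 003, 004 and 007. The cause of these changes was not tested.

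METAP2 changed sign to 0.05203 with limma-voom, 0.238 with quality weights, 0.1488 and 0.1505 with RPM, 0.06678 with the length and GC correction, and ranged from -0.1061 to 0.2645 with 1 library left out. In the same order of settings NMT2 was at 0.07407, 0.1149, 0.1515, 0.1589 and 0.07286, at 0.03264 with upper quartile scaling, 0.005474 without a filter and 0.006509 with the stricter one. NAA15 was at 0.02578 with quality weights and 0.005544 and 0.005611 with RPM, and NAA25 at 0.04351 and 0.04436 with RPM and 0.04108 with the correction. With 1 library left out PDF ranged from 0.07048 to 0.4827, NMT2 from -0.1273 to 0.1377, NAA15 from -0.1747 to 0.008563, NAA20 from -0.07187 to 0.1961 and NAA25 from -0.08324 to 0.01698. The ratio differences then ranged from -0.1481 to 0.256 (METAP2 to METAP1), 0.2556 to 0.4548 (NAA10 to NAA15), -0.01692 to 0.2844 (NAA20 to NAA25) and -0.08022 to 0.2278 (NMT1 to NMT2).

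Between same-numbered tumours (003, 004, 005 and 007), deviations from the group mean correlated at -0.272, 0.0664, 0.0489 and -0.0998. Tumours of different numbers were not compared, so these values cannot tell whether the numbers pair tumours. The labels do not state a pairing. On the 8 libraries with shared numbers a replicate block gave 107 genes and no replicate block 733 (225 higher, 508 lower). With the block METAP2 was at 0.2277, METAP1 at -0.09696 and NMT2 at 0.188, and without the block at 0.2238, -0.08792 and 0.1285. For PDF, the gene with the lowest mean CPM, counting error was 6.66% and the spread between treated tumours 20.3%.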

Other observations

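The METAP2 coefficient of variation between treated tumours was 2.05%, where counting error alone gives 1.77%, and 0.214% of 13068 genes of mean log2 CPM of at least 1 had a lower one. After the length and GC correction it was 3.35%. In the 5 vehicle tumours other than 001 it was 8.68%. Under evexomostat the other 9 genes had coefficients of variation from 7.49% (NMT1) to 20.3% (PDF).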
